A study of Rattus norvegicus with 6 samples.

Results

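Beta cell disallowed genes are widely expressed genes that are kept low in mature pancreatic beta cells, and 10 of them were followed here through the accessible sites (ACS) assigned to them as nearest gene. ATAC-seq, which marks open DNA by insertion of the Tn5 transposase, was run on whole, unsorted islets of Sprague-Dawley rats. The 3 Adult libraries (replicates 4 to 6) each came from 1 untreated male rat of about 3 months. The 3 P10 libraries (replicates 1 to 3) each came from the pooled pups of 1 litter at postnatal day 10, of both sexes. Islet cells were dissociated after collagenase digestion, given through the duct in adults and by shaking the pancreas in pups, so that age, sex, pooling and digestion cannot be told apart. Of the 101603 distinct ACS of the series, 59 carried the symbol of a member, at 9 of the 10 genes. *Hk1* had no ACS under its symbol, but 2 ACS with an empty symbol carried its gene identifier, 25058, which makes 61 ACS for the 10 genes. An ACS may act on a gene other than the nearest, and RNA was not analysed here, so the silencing that gives these genes their name was not measured.

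In most tissues hexokinase 1 and lactate dehydrogenase A let glycolysis run at low glucose and end in lactate, and the transporter MCT1 carries pyruvate and lactate across the plasma membrane. A mature beta cell instead relies on glucokinase and on mitochondrial oxidation, which ties insulin release to blood glucose. Beta cells in which MCT1 is forced on release insulin in response to circulating pyruvate, as in exercise-induced hyperinsulinism. The other members act outside this pathway, as a repressor of neuronal genes (*Rest*), a TGF-beta effector (*Smad3*), secreted factors and a receptor (*Igfbp4*, *Cxcl12*, *Pdgfra*), an amino acid enzyme (*Oat*) and a lipid enzyme (*Acot7*).

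The DNA just before 5 of the member starts is shown here because ACS over 4 of these starts are described further on, as is an ACS inside *Acot7*, which has a second start. The 250 bases before each start come from RefSeq on the rat assembly GRCr8, read in the direction of the gene. Counts were made on the older assembly Rn5, and no position was moved between the assemblies. Capitals mark matches, on either strand, to 5 short sequences, namely TCAGCAC (a part of the RE1 element bound by REST), CAGGTG (core bound by SCRT1), TGANTCA (AP-1), ACGTG (core of the hypoxia response element) and TGTTTAC (forkhead).
*Slc16a1*, chr2:194812410-194812659, plus strand: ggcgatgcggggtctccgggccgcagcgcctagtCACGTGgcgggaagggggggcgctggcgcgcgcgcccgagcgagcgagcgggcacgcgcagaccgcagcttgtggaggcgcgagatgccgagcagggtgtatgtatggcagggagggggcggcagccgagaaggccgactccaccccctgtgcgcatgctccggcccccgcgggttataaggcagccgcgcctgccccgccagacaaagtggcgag
*Igfbp4*, chr10:84491221-84491470, plus strand: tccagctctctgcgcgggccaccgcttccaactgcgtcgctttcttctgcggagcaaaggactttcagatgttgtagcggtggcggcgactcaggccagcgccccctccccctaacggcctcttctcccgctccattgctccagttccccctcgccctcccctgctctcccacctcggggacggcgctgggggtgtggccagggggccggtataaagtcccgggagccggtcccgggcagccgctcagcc
*Smad3*, chr8:73132325-73132574, minus strand: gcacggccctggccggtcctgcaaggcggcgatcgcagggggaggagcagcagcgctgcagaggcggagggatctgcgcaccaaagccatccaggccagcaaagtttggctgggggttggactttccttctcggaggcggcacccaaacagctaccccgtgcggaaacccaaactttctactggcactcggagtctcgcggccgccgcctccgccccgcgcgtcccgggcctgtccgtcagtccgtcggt
*Ldha*, chr1:106507842-106508091, plus strand: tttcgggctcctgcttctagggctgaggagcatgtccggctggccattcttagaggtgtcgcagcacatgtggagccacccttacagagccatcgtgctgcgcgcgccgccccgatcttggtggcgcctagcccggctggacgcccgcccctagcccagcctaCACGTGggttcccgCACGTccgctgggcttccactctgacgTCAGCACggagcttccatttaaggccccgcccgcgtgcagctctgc
*Acot7*, second start, chr5:167975876-167976125, plus strand: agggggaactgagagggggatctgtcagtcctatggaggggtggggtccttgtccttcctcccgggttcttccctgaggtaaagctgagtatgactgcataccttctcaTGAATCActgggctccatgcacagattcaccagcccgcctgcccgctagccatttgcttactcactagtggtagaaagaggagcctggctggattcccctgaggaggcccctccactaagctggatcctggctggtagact

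The first 4 windows hold 33 (*Slc16a1*), 21 (*Igfbp4*), 25 (*Smad3*) and 22 (*Ldha*) CG pairs, against a median of 5 over the 33469 RefSeq windows of the rat, whereas the window of the second *Acot7* start holds 3. The member windows not printed hold 36 (*Acot7*, first start), 36 (*Rest*), 20 (*Cxcl12*), 17 (*Hk1*, second start), 16 (*Oat*), 4 (*Pdgfra*) and 3 (*Hk1*, first start). CACGTG in the *Slc16a1* window is 1 palindrome that reads as ACGTG on both strands. In the *Ldha* window ACGTG matches 3 times, 2 of them on the same palindrome, and TCAGCAC matches once. ACGTG occurs in 16.6% of all windows and TCAGCAC in 3.80%. No letters were matched in the *Igfbp4* and *Smad3* windows, and the second *Acot7* window has 1 match to TGANTCA, which 6.34% of windows hold. Among the windows not printed, TCAGCAC has 1 match at the first *Hk1* start. There, ACGTG has 1 match each at the second *Hk1* start and *Oat*, and TGANTCA 1 each at *Rest* and *Pdgfra*. CAGGTG (15.9% of windows) and TGTTTAC (3.21%) were matched at none of the 10 members. A match is a string of letters and does not show that the factor binds.

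Libraries held 7916919 to 11903909 integrations inside ACS in adults and 13491534 to 21168463 in P10 islets. Levels are given as CPM, the usual share of a library's integrations inside ACS, after TMM scaling (factors 0.93 to 1.04), so that an ACS is set against the other ACS of its library. Per 100 sequenced reads, 2.48 to 3.05 integrations fell inside ACS in adults and 4.05 to 5.77 in P10 islets. Scaled by total reads instead, the median log2 fold change of all ACS moved by -0.83, and each change below is relative to the ACS as a whole. The edgeR quasi-likelihood test was applied to the counts. A positive log2 fold change means more accessible in adults. Following the study's limits, an ACS was called Up (more accessible in adults) or Down (more accessible in P10) at a p-value under 0.05 and a false discovery rate under 0.2. Each standard error (SE) is the log2 fold change divided by the square root of the F statistic. In a mixed islet, fewer cells of a type and less accessible DNA per cell cannot be told apart.

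Among the marker lists of islet cell types, summed accessibility at alpha cell genes ranged from 858 to 987 CPM in adults and from 696 to 790 CPM in P10, with 22 Up and 3 Down of 103 ACS. Endothelial genes ranged from 472 to 559 against 432 to 454 CPM, with 9 Up and 1 Down of 56 ACS, and mesenchymal and stellate genes from 420 to 463 against 391 to 414 CPM, with 7 Up and 5 Down of 69. Duct genes ranged from 229 to 259 against 202 to 217 CPM (4 Up and 6 Down of 35 ACS). Beta cell genes overlapped, at 1065 to 1256 against 1008 to 1322 CPM (17 Up and 13 Down of 105 ACS, with no ACS assigned to *Mafa* or *G6pc2*), as did delta cell genes, at 159 to 198 against 178 to 192 CPM (1 Up and 5 Down of 13). Acinar genes reached 401 to 458 against 366 to 402 CPM (5 Up and 2 Down of 56) and immune genes 26.0 to 32.9 against 28.5 to 36.1 CPM (0 Up and 1 Down of 8). Single genes held many of the ACS of some lists. *Irx1* and *Irx2* held 50 and 25 of the 103 alpha cell ACS, with 13 and 6 Up. *Gcg* had 0 Up and 1 Down of 6. *Cdh5* held 28 of the 56 endothelial ACS, with 6 Up, and *Ptf1a* 40 of the 56 acinar ACS, with 3 Up. *Ins1* held 28 of the 105 beta cell ACS and 9 of the 13 Down. The part of other cell types in the values of the members was not tested.

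Accessibility at the disallowed genes moved in both directions. Of the 59 ACS found by symbol, 4 were Up (6.78%, against 12.3% of all ACS) and 8 were Down (13.6%, against 6.63% of all ACS), while 47 were not called. The difference between these shares was not tested. At the same limits the study reported more Down than Up ACS over all ACS, the reverse of the balance found here. The member shares are set here only against all ACS of the same fit. The study's own calls at the members were not used, and why the balances differ was not tested. With column sums as library sizes, 10447 of all ACS were Up and 10732 Down, and 4 and 11 of the 59, so the balance of Up and Down over all ACS depends on the scaling. The median log2 fold change of the 59 ACS was -0.12, against -0.01 over all ACS, and 37 of the 59 lay below 0. In 8 ACS every adult library exceeded every P10 library (13.8% of all ACS did so), in 7 every adult library was lower (10.9% of all ACS), and in 44 the ages overlapped. With the *Hk1* ACS there were 5 Up and 9 Down of 61. The Down count depended on single libraries. It was 3, 7 and 4 without adult 4, 5 and 6, and 6, 1 and 3 without P10 1, 2 and 3, whereas the Up count was 3 without P10 2, 7 without P10 1 and 4 to 6 without any other library. With an FDR under 0.05, 3 Up and 2 Down remained.

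By distance from the gene, the counts were as follows. Of the 9 ACS in the TSS class (within 1000 bp of the start), 3 were Down and 0 Up, where 7.87% of all TSS ACS were Down and 2.73% Up. Their median log2 fold change was -0.26, against -0.10 for all TSS ACS. With the *Hk1* start, 4 of 10 were Down. These calls were small and rested on all 6 libraries, since 0 to 2 of the 3 were called when any library was left out, and 0 without adult 4, P10 2 or P10 3. In the PROXIMAL class (to 10000 bp) 2 of 9 ACS were Down and 0 Up (6.71% and 11.2% of all PROXIMAL ACS). In the DISTAL class 4 of 41 were Up and 3 Down (13.8% and 6.45% of all DISTAL ACS), with a median log2 fold change of -0.10, against 0.02 for all DISTAL ACS. Fewer of the member ACS were DISTAL (69.5%, against 79.3% of all). The member ACS had a median width of 357 bp and a median of 64.7 integrations per library, close to the 373 bp and 64.8 of all ACS.

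**Figure D1:**
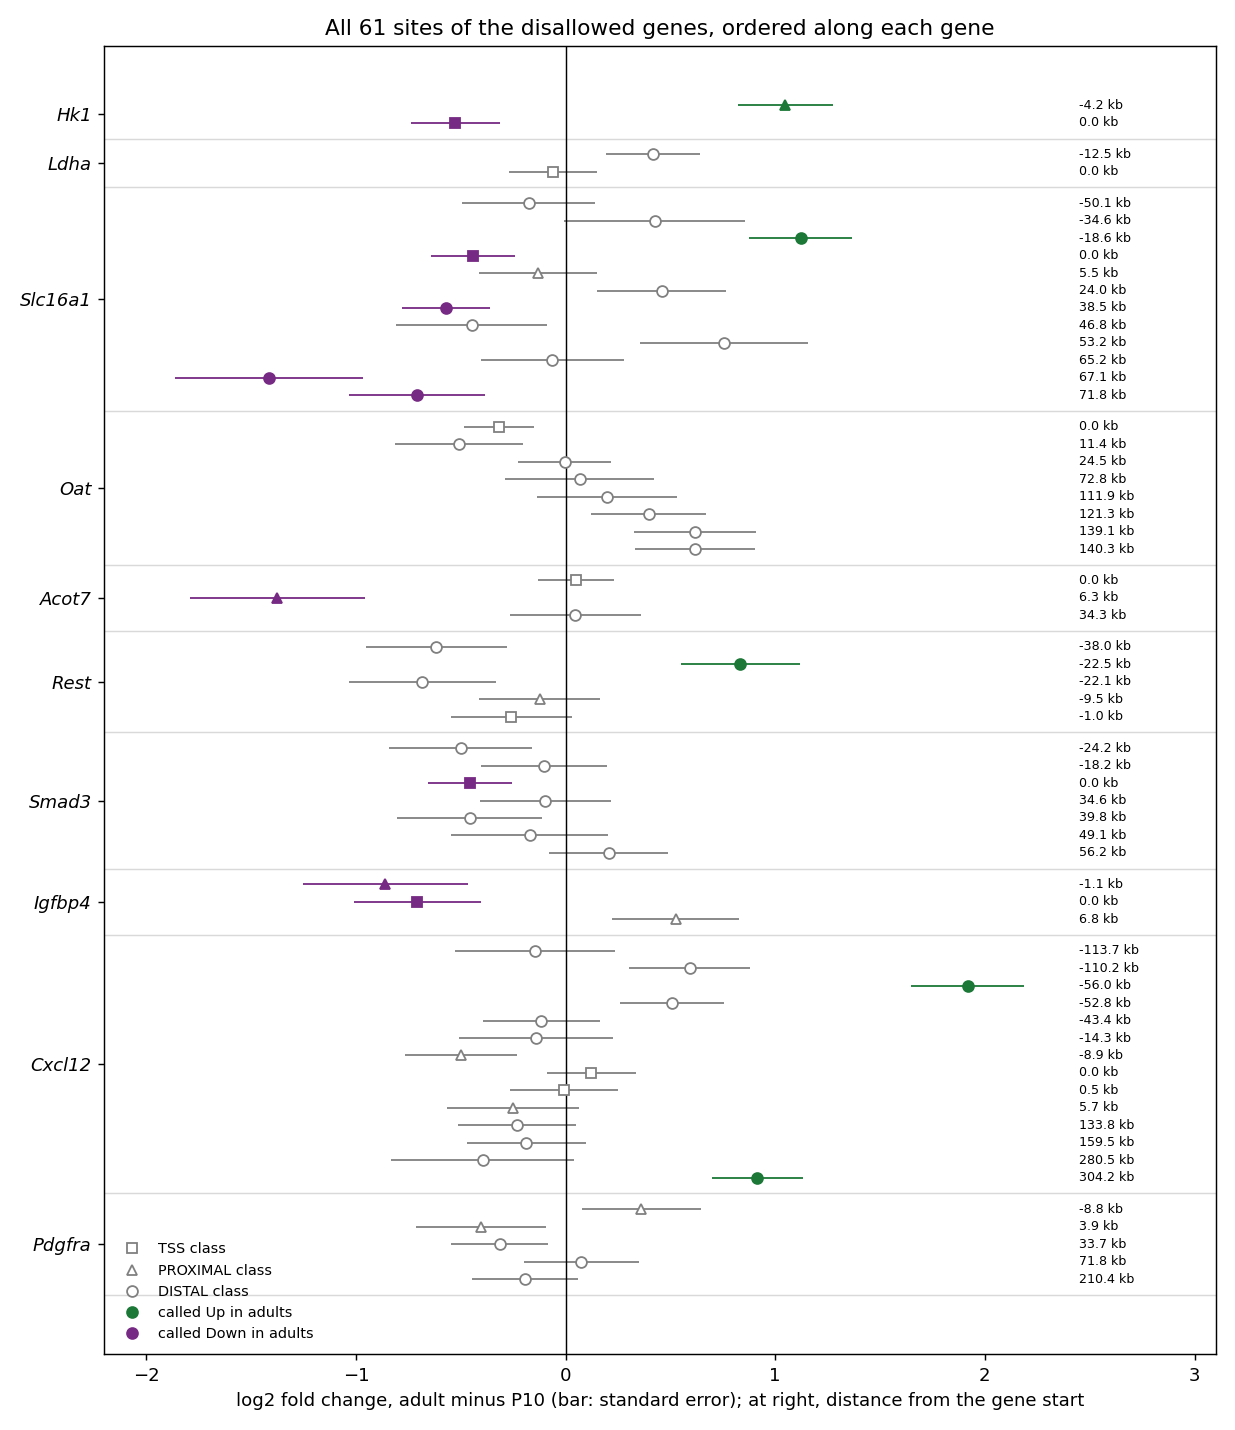
Log2 fold change (adult minus P10, x axis) of each of the 61 ACS, grouped by gene and ordered along it, with the distance from the gene start at right; bars are standard errors, the marker shape gives the class and filled markers are called. Up calls in green lie upstream of the start annotated on Rn5 or far downstream. All 4 filled squares, which are ACS over a gene start, lie below 0.

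*Hk1* encodes the hexokinase with high affinity for glucose, which glucokinase replaces in mature beta cells. Its 2 ACS, found by gene identifier, moved in opposite directions. The ACS over the start (chr20:33770372-33771105) held 11.9, 11.8 and 13.0 CPM in adults 4, 5 and 6 and 16.0, 21.9 and 15.0 CPM in P10 1, 2 and 3. All adults lay below all P10 libraries, and the ACS was Down (log2 fold change -0.53, SE 0.21, adjusted p = 0.135 by edgeR). The call was lost without adult 4 (adjusted p = 0.244), adult 5 (0.214) or P10 2 (0.538). The second ACS (chr20:33774768-33775130), 4170 bp upstream, held 19.9, 22.8 and 15.1 CPM in adults and 11.7, 8.49 and 7.77 CPM in P10. It was Up 2.07-fold (log2 fold change 1.05, SE 0.23, adjusted p = 0.00278), in all 6 fits without a library. In GRCr8 a second RefSeq start of *Hk1* lies 32742 bp past the first, and the gene spans 101593 bp, against 67127 bp on Rn5. Which of these starts the Rn5 start matches was not tested, so upstream here means upstream of the start annotated on Rn5. The upstream ACS had 1.16 to 1.93 times the integrations of the start ACS in adults and 0.388 to 0.728 times in P10, a ratio within each library that does not depend on the scaling, and which was taken after the values had been seen.

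*Ldha* encodes the lactate dehydrogenase subunit that turns pyruvate into lactate. Neither of its 2 ACS was called. Over the start (chr1:103974834-103975388), adults held 12.1, 15.6 and 12.4 CPM and P10 islets 13.9, 14.3 and 13.7 CPM, with a log2 fold change of -0.06 (SE 0.21, adjusted p = 0.918). The ACS 12502 bp upstream (chr1:103962470-103962707) held 23.0, 18.1 and 14.8 CPM in adults and 18.3, 11.1 and 12.5 CPM in P10 (log2 fold change 0.42, SE 0.22, adjusted p = 0.292), with the ages overlapping. Without P10 1 this ACS was Up (log2 fold change 0.65, adjusted p = 0.0707), as it was without adult 6 (0.55, adjusted p = 0.188).

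*Slc16a1* encodes MCT1, the transporter of pyruvate and lactate, and had 12 ACS, of which 4 were Down and 1 Up. The wide ACS over the start (chr2:226528666-226529878, 1213 bp) held 15.9, 14.6 and 19.5 CPM in adults and 19.0, 25.2 and 23.5 CPM in P10. Adult 6 lay above P10 1, and the Down call (log2 fold change -0.44, SE 0.20, adjusted p = 0.188) was near the limit. It was lost without adult 4, adult 5, P10 2 or P10 3 (adjusted p = 0.321 to 0.492) and with limma voom (adjusted p = 0.206). The ACS 18593 bp upstream (chr2:226510338-226510701) went the other way, at 15.5, 12.0 and 11.7 CPM in adults and 6.51, 4.49 and 6.98 CPM in P10. It was Up 2.18-fold (log2 fold change 1.12, SE 0.24, adjusted p = 0.00307), in all 6 fits without a library. Within each library the upstream ACS had 0.603 to 0.977 times the integrations of the start ACS in adults and 0.178 to 0.342 times in P10, a ratio also taken after the values had been seen.

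The other 3 Down ACS of *Slc16a1* lie past the gene, whose annotated length on Rn5 is 20010 bp. The ACS 38531 bp from the start (chr2:226567825-226568481) held 14.6, 14.0 and 9.41 CPM in adults and 19.7, 19.5 and 17.6 CPM in P10 (log2 fold change -0.57, SE 0.21, adjusted p = 0.0964), with no overlap. Its call was lost without adult 6 (adjusted p = 0.36) or P10 2 (0.238). At 67141 bp (chr2:226596435-226596764), adults held 0.181, 2.43 and 1.93 CPM and P10 islets 3.44, 4.28 and 4.18 CPM. The value of adult 4 there is 2 integrations, and the change of -1.41 (SE 0.45, adjusted p = 0.0456) became -0.84 (adjusted p = 0.209, not called) without that library. The last ACS, at 71809 bp (chr2:226601103-226601555), held 2.08, 4.28 and 2.32 CPM in adults and 4.14, 5.56 and 4.65 CPM in P10. Adult 5 overlapped P10 1, and the Down call (log2 fold change -0.71, SE 0.32, adjusted p = 0.197) was lost without adult 4, adult 6, P10 2 or P10 3 (adjusted p = 0.313 to 0.475) and with DESeq2 (adjusted p = 0.22). Without adult 5 the change was -1.12 (adjusted p = 0.0514). The 7 ACS that were not called ranged from -0.45 to 0.76.

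**Figure D2:**
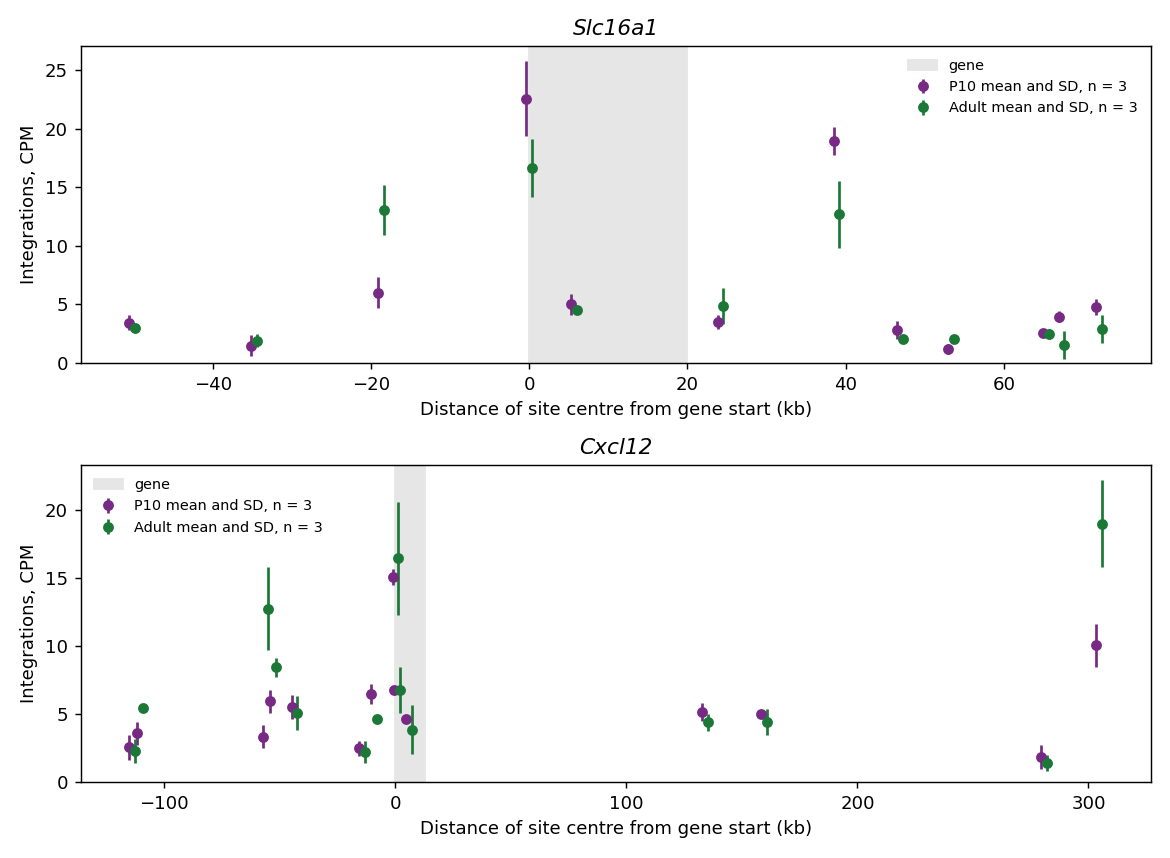
Mean integrations per ACS (CPM after TMM, y axis) against the distance of the ACS centre from the gene start (kb, x axis) at *Slc16a1* and *Cxcl12*, with bars for the SD of 3 libraries and both ages set slightly apart sideways. At *Slc16a1* the adult mean is higher 18.6 kb upstream and lower at the start, and at *Cxcl12* it is higher 56.0 kb upstream and 304 kb downstream while the ages overlap at the start.

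*Oat* encodes ornithine aminotransferase, a mitochondrial enzyme that converts ornithine. None of its 8 ACS was called. The ACS over the start (chr1:211575047-211576028) had the most integrations of all 61, with 39.3, 36.2 and 30.7 CPM in adults and 47.2, 46.0 and 39.2 CPM in P10. Adult 4 reached the level of P10 3, and the log2 fold change was -0.32 (SE 0.17, adjusted p = 0.281). With column sums as library sizes this ACS was Down (log2 fold change -0.41, adjusted p = 0.0978). A pair of ACS 139053 and 140297 bp past the start stood just outside the limit, each with a log2 fold change of 0.62 (adjusted p = 0.211 and 0.208). All 8 ranged from -0.51 to 0.62.

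*Acot7* encodes an acyl-CoA thioesterase, which frees fatty acids from coenzyme A. Over its start (chr5:172911602-172912442) the ages were close, with 33.3, 25.6 and 23.6 CPM in adults and 27.4, 27.7 and 24.7 CPM in P10 (log2 fold change 0.05, SE 0.18, adjusted p = 0.919). The ACS 6282 bp inside the gene (chr5:172918378-172918697) held 0.994, 1.27 and 1.03 CPM in adults, or 11, 13 and 8 integrations, and 2.32, 4.49 and 1.90 CPM in P10. All adults lay below all P10 libraries, and the ACS was Down 2.65-fold (log2 fold change -1.37, SE 0.42, adjusted p = 0.0353). Without P10 2, the highest library, the change was -0.96 (adjusted p = 0.314, not called). In GRCr8 a second RefSeq start of *Acot7*, whose window is printed above, lies 6724 bp past the first, and whether it coincides with this ACS on Rn5 was not tested. The third ACS had a log2 fold change of 0.05.

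*Rest* encodes the repressor that keeps neuronal genes off outside neurons, a group of genes that beta cells share in part with neurons. Of its 5 ACS 1 was Up and 0 Down. No ACS covered the start annotated on Rn5, from which the distances here are taken. The gene spans 15098 bp on Rn5 and 20037 bp in GRCr8, and whether the starts match was not tested. The nearest ACS, 956 bp upstream (chr14:32945222-32945757), held 4.70, 4.48 and 5.16 CPM in adults and 3.77, 7.28 and 6.19 CPM in P10, with overlap (log2 fold change -0.26, SE 0.29, adjusted p = 0.688). The ACS 22455 bp upstream (chr14:32966721-32967005) held 4.97, 7.40 and 9.28 CPM in adults and 3.63, 3.92 and 4.49 CPM in P10. It was Up 1.80-fold with no overlap (log2 fold change 0.83, SE 0.28, adjusted p = 0.0651), but not without adult 6 (0.62, adjusted p = 0.289) or P10 2 (0.81, adjusted p = 0.201).

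Only 65 bp apart from that ACS of *Rest*, the neighbouring ACS (chr14:32966407-32966655) held 2.71, 1.46 and 1.93 CPM in adults and 2.84, 3.35 and 3.70 CPM in P10. There every adult library was below every P10 library, yet the ACS was not called (log2 fold change -0.68, SE 0.35, adjusted p = 0.266). Taken after the values had been seen, the ratio of the first to the second of these neighbours was 1.83, 5.07 and 4.80 in adults 4, 5 and 6 and 1.28, 1.17 and 1.21 in P10 1, 2 and 3. The 4 ACS of *Rest* that were not called all lay below 0, from -0.68 to -0.12.

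*Smad3* encodes a transcription factor that carries TGF-beta signals to the nucleus. Its ACS over the start (chr8:68397705-68398296) held 12.7, 12.9 and 14.8 CPM in adults and 19.5, 17.5 and 18.3 CPM in P10, without overlap. It was Down 1.37-fold (log2 fold change -0.46, SE 0.20, adjusted p = 0.174), a call that was kept in 1 of 6 fits, the one without adult 6, with an adjusted p of 0.24 to 0.318 in the other fits. The other 6 ACS, upstream or inside the gene, were not called, all overlapped between ages, and ranged from -0.50 to 0.21.

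*Igfbp4* encodes a secreted protein that binds insulin-like growth factors. It had 3 ACS with few integrations, of which 2 were Down. The ACS over the start (chr10:86747454-86747855) held 2.62, 3.70 and 2.84 CPM in adults and 5.81, 4.14 and 4.97 CPM in P10, without overlap (log2 fold change -0.71, SE 0.30, adjusted p = 0.162). The ACS 1106 bp upstream (chr10:86746151-86746370) held 0.994, 3.80 and 1.42 CPM in adults and 4.74, 3.14 and 3.44 CPM in P10. Adult 5 lay above P10 2 and 3 there (log2 fold change -0.86, SE 0.39, adjusted p = 0.197). Each call was kept only without adult 5, with an adjusted p of 0.201 to 0.357 at the start and 0.242 to 0.541 upstream in the other 5 fits. The upstream change was -1.67 without adult 5 and -0.50 without adult 4, and the ACS was not called with DESeq2 (adjusted p = 0.247). The third ACS, 6768 bp inside the gene (chr10:86754244-86754495), had the opposite order, with 4.07, 4.87 and 4.38 CPM in adults all above 3.49, 3.28 and 2.48 CPM in P10, but was not called (log2 fold change 0.52, SE 0.30, adjusted p = 0.34).

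*Cxcl12* encodes a chemokine that binds the receptor CXCR4. Of its 14 ACS 2 were Up and 0 Down. The ACS 56041 bp upstream (chr4:215139324-215139648) changed most of the 61, with 16.2, 10.3 and 11.7 CPM in adults and 3.21, 2.57 and 4.28 CPM in P10. The adult mean was 12.7 CPM ± 3.05 (SD, n = 3) and the P10 mean 3.35 CPM ± 0.87 (SD, n = 3), a 3.80-fold difference (log2 fold change 1.92, SE 0.27, adjusted p = 2.52e-05). It was Up in all 6 fits without a library and was the 1 ACS of the 59 still Up when total reads set the library sizes. Its neighbour 52751 bp upstream (chr4:215142404-215142938) had 8.95, 8.76 and 7.61 CPM in adults, all above 6.74, 6.06 and 5.02 CPM in P10, but was not called (log2 fold change 0.51, SE 0.25, adjusted p = 0.239).

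The other Up ACS of *Cxcl12* lies 304227 bp past the start (chr4:215499916-215500577), with 20.2, 15.4 and 21.5 CPM in adults and 8.65, 9.77 and 11.8 CPM in P10 (log2 fold change 0.92, SE 0.22, adjusted p = 0.00634), and was Up in all 6 fits without a library. With the centre of the ACS within 100 kb of a start, 3 of 48 member ACS were Up (6.25%) and 8 Down (16.7%), where 11.5% of all ACS at that distance were Up and 6.91% Down. Over the *Cxcl12* start (chr4:215195523-215196059) adults held 15.5, 12.9 and 21.0 CPM and P10 islets 14.9, 14.6 and 15.7 CPM, with overlap (log2 fold change 0.12, SE 0.21, adjusted p = 0.814). The ACS 8883 bp upstream (chr4:215186311-215186806), named after its values were seen, held 4.34, 4.77 and 4.77 CPM in adults, all below 6.69, 5.71 and 7.14 CPM in P10. It was not called (log2 fold change -0.50, SE 0.27, adjusted p = 0.295), but was Down with column sums as library sizes. The 12 ACS that were not called ranged from -0.50 to 0.59.

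*Pdgfra* encodes a receptor for platelet-derived growth factors, found mainly on mesenchymal cells. None of its 5 ACS was called, all overlapped between ages and none fell in the TSS class of the start annotated on Rn5. The gene spans 52878 bp on Rn5 and 48578 bp in GRCr8, and whether the starts match was not tested. The nearest to the start, 3891 bp inside (chr14:35405154-35405420), held 5.24, 3.12 and 2.71 CPM in adults and 4.28, 6.13 and 4.49 CPM in P10 (log2 fold change -0.40, SE 0.31, adjusted p = 0.509). The ACS with most integrations, 33726 bp inside (chr14:35374942-35375585), held 12.5, 10.6 and 16.8 CPM in adults and 21.4, 12.5 and 15.2 CPM in P10 (log2 fold change -0.31, SE 0.23, adjusted p = 0.487). All 5 ranged from -0.40 to 0.36.

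**Figure D3:**
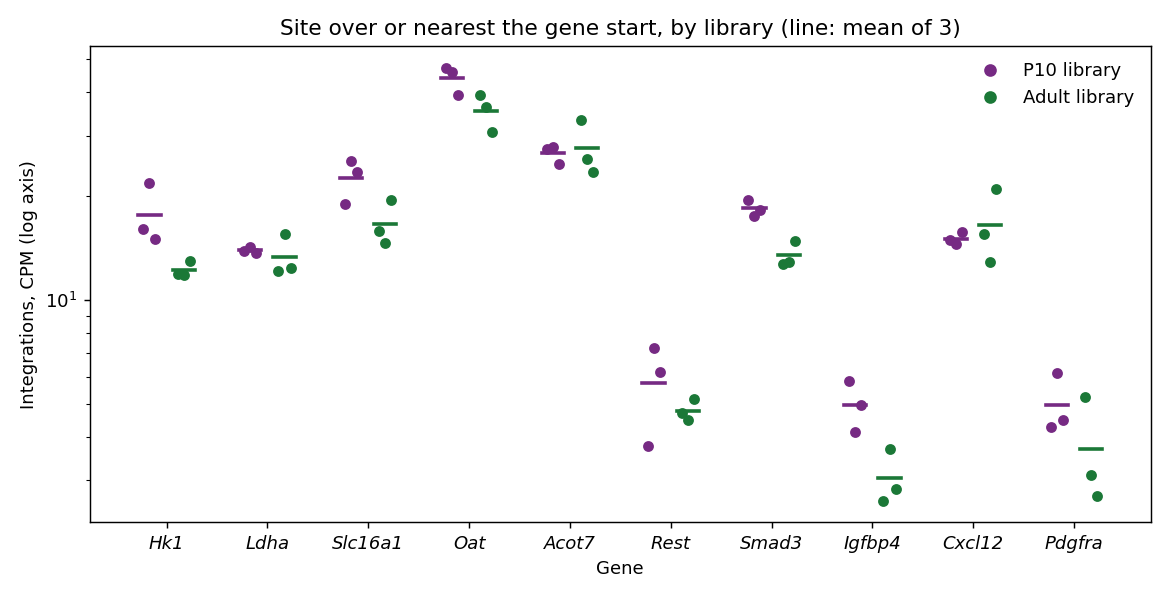
Integrations (CPM after TMM, log y axis) of each library at the ACS over or nearest the start of each of the 10 genes, with lines for the mean of 3. Adult libraries lie below all P10 libraries at *Hk1*, *Smad3* and *Igfbp4*, and the ages overlap at the other 7 genes.

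Sums over all ACS of a gene gave few calls. Of the 10 genes 1 was Up and 0 Down, where 10.5% of the 14776 genes with an ACS were Up and 7.63% Down. *Cxcl12* summed to 93.9, 87.3 and 109 CPM in adults and 71.2, 77.6 and 86.8 CPM in P10 (log2 fold change 0.30, SE 0.12, adjusted p = 0.156 by edgeR over genes), and adult 5 exceeded P10 3 only narrowly. This call was kept without adult 5 or P10 3 and lost without adult 4, adult 6, P10 1 or P10 2 (adjusted p = 0.276 to 0.437). *Smad3* summed to 30.6, 37.0 and 35.7 CPM in adults, all below 41.6, 43.6 and 40.0 CPM in P10, but was not called (log2 fold change -0.28, SE 0.13, adjusted p = 0.225). The other 8 genes ranged from -0.31 (*Igfbp4*) to 0.22 (*Hk1*), with adjusted p-values of 0.386 to 0.907.

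**Figure D4:**
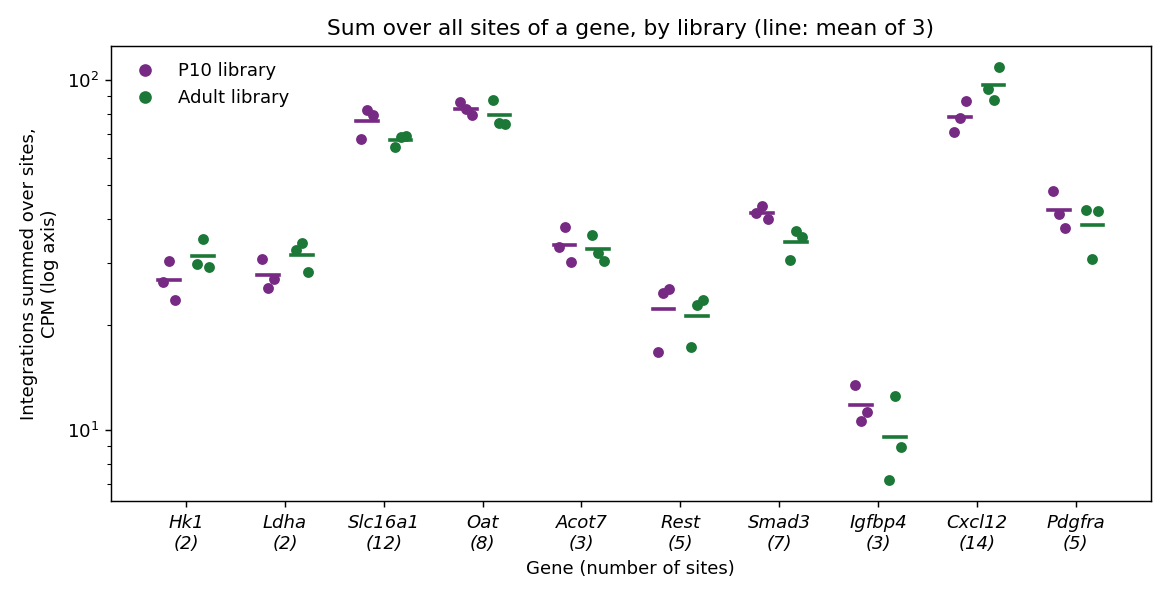
Integrations summed over all ACS of each of the 10 genes in each library (CPM after TMM, log y axis), with lines for the mean of 3 and the number of ACS in brackets. The ages do not overlap at *Cxcl12*, where adults are higher, and *Smad3*, where adults are lower.

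Genes of the same pathways were taken from a list of 46, of which 41 had 346 ACS. Of these, 45 were Up (13.0%, against 12.3% of all ACS) and 17 Down (4.91%, against 6.63%), with a median log2 fold change of 0.04. The counts of the single groups, here and in the next paragraph, were not tested against the shares of all ACS. *Cxcr4*, the receptor of CXCL12, had 3 Up and 0 Down of 17 ACS, and the ACS with the smallest p-value of the list lies 395275 bp upstream of it (chr13:50793307-50793746). That ACS held 30.5, 28.0 and 31.1 CPM in adults and 5.53, 5.49 and 4.86 CPM in P10 (log2 fold change 2.49, adjusted p = 2.14e-08). The TGF-beta receptors and SMAD genes had 15 Up and 3 Down of 78 ACS, and IGF binding proteins 10 Up and 9 Down of 70. *Igfbp7*, a secreted IGF binding protein, held 54 of these 70 ACS, with 8 Up and 5 Down. Its Up ACS with the smallest p-value lies 535065 bp upstream of its start (log2 fold change 2.32, adjusted p = 3.25e-05). Its Down ACS with the smallest p-value lies 1036933 bp upstream (-2.65, adjusted p = 0.00268). That Down ACS had few integrations, with 0.361, 0.292 and 0.258 CPM in adults 4, 5 and 6 and 0.837, 2.78 and 2.43 CPM in P10 1, 2 and 3. Ornithine genes had 4 Up and 1 Down of 23 ACS, with *Odc1*, the ornithine decarboxylase, at a log2 fold change of 1.59 (adjusted p = 9.85e-06) 39600 bp upstream.

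Other monocarboxylate transporters and their chaperones had 6 Up and 2 Down of 70 ACS. *Emb*, whose product escorts these transporters to the membrane, held 47 of the 70 ACS, among them 5 of the Up ACS and both Down ACS. The Down ACS with the smaller p-value changed by -1.02 on the log2 scale (adjusted p = 0.0064). Lactate dehydrogenases had 3 Up and 0 Down of 14 ACS, hexokinases 0 Up and 1 Down of 10, acyl-CoA thioesterases 1 Up and 0 Down of 23, and PDGF genes 3 Up and 1 Down of 32. The start of *Pdgfd*, a PDGF ligand, was Down (log2 fold change -0.85, adjusted p = 0.0122). REST corepressors had 0 called of 9 ACS.

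A further 14 genes described as low in mature beta cells had 122 ACS, with a median log2 fold change of -0.06. Of these ACS, 23 were Up (18.9%, against 12.3% of all ACS) and 11 Down (9.02%, against 6.63%), a difference that was not tested. A few genes held many of the calls and many of the ACS, with 8 Up of 32 ACS at *Lmo4*, 6 Up of 13 at *Maf* and 4 Down of 17 at *Nfib*. *Cd302*, *Ndrg2*, *Tst* and *Zyx*, with only 6, 2, 2 and 1 ACS, had 0 called. The Up ACS with the smallest p-values were at *Maf*, a transcription factor (15.4, 13.5 and 21.0 CPM in adults, 5.07, 4.07 and 3.65 CPM in P10, adjusted p = 6.96e-06), at *Mgst1*, a glutathione transferase (adjusted p = 0.000767), and at *Lmo4*, a cofactor of transcription (adjusted p = 0.00165). Down were an ACS of *Nfib*, a transcription factor (log2 fold change -0.99, adjusted p = 0.0309), its start (-0.75, adjusted p = 0.0535) and another ACS of *Lmo4* (-0.64, adjusted p = 0.0735). As with *Slc16a1* and *Hk1*, a gene of this list could thus hold ACS of both directions.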

How the data were processed

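The authors made ATAC-seq libraries from 100000 dissociated islet cells each, aligned reads to Rn5 with BWA 0.7.13, and discarded mitochondrial reads and those with a mapping quality under 30 (FastQC 0.11.2 and SAMtools 1.3 are named in the submitters' processing notes). They called peaks with MACS2 2.1.1 on the concatenated samples, separately for adults and P10, joined both sets and deposited raw counts of Tn5 integrations, per ACS, for each library. Litters were pools of 3 to 5 pups. Whether PCR duplicates were removed is not given in the sources used here, so errors cover the spread of these counts as they stand. The table also holds the authors' own comparison (log fold change, mean level, F, p-value and FDR), which was not used, and the nearest gene.

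Of 101941 entries, 338 repeat an ACS, and each ACS entered once. No symbol was given for 6899 entries, and 6707 of them carried a gene identifier with a RefSeq symbol. The quasi-likelihood test of edgeR 4.0.16 (R 4.3.3) used TMM factors, age as the only term, no filter and Benjamini-Hochberg adjustment over all 101603 ACS, or over 14776 genes for summed counts. It was tested on simulated data first, drawn with the means of these counts. Named ACS are, per member, the one over or nearest the start, the one with the highest mean count and every called one, and others were named after their values were seen. Of the other lists, at most the 3 called ACS with the smallest p-value in each direction were named. One further marker list is not reported here. Members and lists were chosen with earlier results of these data known. Alternatives were other library sizes, DESeq2 1.42.0, limma 3.58.1 with voom, a filter on low counts (minimum 10), a limit of 0.05 on the FDR, and 6 fits that each left out 1 library. Figures were drawn with matplotlib 3.10.9.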

Additional observations from a re-analysis of the deposited data

How the results depend on the processing

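With median-of-ratios size factors, DESeq2, limma voom and the filter on low counts, the 59 member ACS gave 4 Up and 6 to 8 Down calls, against 4 and 8. Of 32 single values recomputed (the sums and the ACS that the naming rule chose), 32 kept direction and call with median-of-ratios size factors and with the filter, 31 with limma voom and 30 with DESeq2. With column sums there were 11 Down, 10447 Up and 10732 Down over all ACS (49.3% of calls Up, against 65.0%), 16 Down at the other disallowed genes, 30 Down at the pathway partners, 0 Up and 2 Down of the summed member genes, and -0.048 at the *Acot7* start. An FDR under 0.05 left 3 Up and 2 Down member ACS, 0 Down in their TSS class, 7177 Up and 1945 Down over all ACS, 1 Down at the other disallowed genes, 25 Up and 5 Down at the partners and 0 Up of the summed genes. Total reads, which move the median of all ACS, gave 1 Up and 41 Down member ACS (9 Down in the TSS class), 1062 Up and 61663 Down in all (1.69% of calls Up), 1 Up and 75 Down at the other disallowed genes, 3 Up and 207 Down at the partners, and 0 Up and 10 Down of the summed genes. They also reversed the log2 fold change of the upstream ACS of *Ldha* (-0.45), the starts of *Acot7* (-0.78) and *Cxcl12* (-0.73), the Up ACS of *Rest* (-0.00053) and the sums of *Hk1* (-0.61), *Ldha* (-0.65) and *Cxcl12* (-0.53).

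Leaving out 1 library gave 3 to 7 Up and 1 to 7 Down member ACS, 0 to 2 Down in the TSS class, 7973 to 13232 Up and 3285 to 7215 Down over all ACS, 20 to 29 Up and 1 to 11 Down at the other disallowed genes, 26 to 46 Up and 10 to 24 Down at the partners, and 0 to 1 Up and 0 to 2 Down of the summed genes. Values near 0 changed sign in these fits, namely the starts of *Ldha* (-0.19 to 0.0093), *Acot7* (-0.11 to 0.15) and *Cxcl12* (-0.084 to 0.27) and the sums of *Rest* (-0.26 to 0.058) and *Acot7* (-0.12 to 0.049). Fits with 5 libraries have fewer residual degrees of freedom, and other causes were not tested. With the *Hk1* ACS added there were 5 Up and 9 Down, and within 100 kb 3 Up and 8 Down, both chosen after seeing the data. No paired analysis was possible, since each adult library came from 1 adult rat and each P10 library from pooled pups of 1 litter, with no link given between them. At 3 libraries per age, standard errors of 0.17 to 0.31 at the ACS over or nearest the member starts limit which changes there could be called.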
